A study of Ceratotherium simum with 9 samples.

Results

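The entries described here are 8 mature miRNA names of the human part of miRBase, hsa-miR-10400-5p, hsa-miR-4497, hsa-miR-4492, hsa-miR-3195, hsa-miR-3960, hsa-miR-7704, hsa-miR-4488 and hsa-miR-4508. They were chosen by name, as human entries said to resemble fragments of ribosomal or other structural RNA, out of 3886 miRNA names in the table, 2325 of them human. All 8 were found, and all 8 passed the expression filter of more than 10 CPM, a read count scaled to library size, in at least 2 of 3 replicates in each of the 3 groups. They are 8 of the 417 miRNAs tested and of the 136 human entries among them. The resemblance to ribosomal RNA was not tested, since no rhinoceros or human ribosomal RNA sequence was at hand.

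The libraries were small-RNA libraries of extracellular vesicles (EVs) from the follicular fluid (FF) of 2 southern white rhinoceros females that had received chlormadinone acetate and then the GnRH analog deslorelin before ovum pick-up. Follicles were staged by diameter as growing (G, 11 to 17 mm), dominant (D, 18 to 29 mm) or pre-ovulatory (P, 30 to 34 mm), with 3 libraries in each group (n = 3). Age and genotype are not given in the sources used here. Each library came from vesicle preparations pooled over both animals, so the p-values measure the spread between these pools, which may be technical, and not between animals. The gonadal miRNA miR-202 lay between 0 CPM in D2 and 3677 CPM in D3. The 14 names matched to miR-451, which marks red cells, summed to 29952.5 to 163295 CPM. Markers of other sources were thus read in these libraries. A change in the number of vesicles and a change in their content cannot be told apart.

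A canonical miRNA is cut from a hairpin precursor by Drosha and Dicer and guides Argonaute to target transcripts mainly through its seed, bases 2 to 8 of the mature strand. Ribosomal RNA is the most abundant RNA of a cell, its expansion segments and transcribed spacers are rich in G and C, and its fragments are common in small-RNA libraries of vesicles. A read is assigned to a miRNA name by its sequence, here with at most 2 mismatches, and the methods name no step that removed ribosomal reads beforehand. For most of these 8 names little is firmly known of function. An exception is miR-3960, which in mouse promotes bone formation by osteoblasts.

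Sequences were at hand for 3 of the 8 entries, as listed by the study for its differentially expressed miRNAs, and are shown because they include the members whose levels differed most between stages. They are written 5′ to 3′ as DNA, with the seed in capitals.
hsa-miR-4497: cTCCGGGAcggctgggc
hsa-miR-4492: gGGGCTGGgcgcgcgcc
hsa-miR-4488: aGGGGGCGggctccggcg
The first 2 are 17 bases long and hsa-miR-4488 has 18. G and C made up 82.4% of hsa-miR-4497, 94.1% of hsa-miR-4492 and 88.9% of hsa-miR-4488. Among the other 41 miRNAs with a sequence in the same list the G and C content was 31.8 to 70.0%, with a median of 43.5% and bta-miR-11980 at the top, so none reached 75%. That list was itself chosen by differences between these groups and stands only as a description.

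The 3 sequences had 3 different seeds, and none of the other 41 shared a seed with them. hsa-miR-4497 and hsa-miR-4492 had the 8 bases GGCTGGGC in common, at positions 10 to 17 of the former and 3 to 10 of the latter, counted from the 5′ end. The longest run shared by hsa-miR-4497 and hsa-miR-4488 had 6 bases, and that shared by hsa-miR-4492 and hsa-miR-4488 had 5. No run longer than 6 bases was shared with any of the other 41 sequences.

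Whole reads could be recovered from the deposited CPM, and the libraries held 18384 to 149281 miRNA reads with a median of 38258. By the study's read summary, miRNA reads were a very small part of the reads that passed quality control in every library. G3 had by far the most raw reads, and a much smaller part of them passed quality control than in any other library. A single read was worth 5.64 to 38.6 CPM, and 0 reads in a library allow up to 3 reads, or 16.9 to 115.9 CPM. Such limits and the intervals given for shares cover counting error only, since the methods name no molecular identifiers for the reads. The values are adjusted by TMM, and some libraries were dominated by a single miRNA, as eca-miR-148a held 71.8% of all reads in D2 and bta-miR-11980 held 35.0% in G1. Shares of reads are therefore given beside CPM where they place a library differently.

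Together the 8 entries took 3.65%, 2.81% and 2.53% of the miRNA reads in G1, G2 and G3. In the D group they took 20.1% of D1, 2.32% of D2 and 10.2% of D3. In the P group the shares were 7.27%, 7.29% and 11.9%. Every P library thus had a larger share than every G library, whereas D2 had the smallest share of all 9 libraries. The 95% Wilson intervals ran from 2.24 to 2.40% in D2 and from 19.6 to 20.5% in D1.

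On the CPM scale D2 did not stand below the G group. The summed level of the 8 entries was 57863, 19180 and 21113 CPM in G1, G2 and G3, against 176137, 74854 and 89374 CPM in D1, D2 and D3. In P1, P2 and P3 it was 64280, 51827.5 and 84023 CPM. By CPM all D libraries were above all G libraries, and the P libraries lay between, overlapping with both groups.

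The sums were carried by hsa-miR-10400-5p, which held 75.3 to 87.8% of the members' reads in 8 libraries and 30.7% in G3. In G3 the largest of the others was hsa-miR-4488, with 80.5% of the level of the 7 entries left. In the D and P libraries the largest of these 7 was hsa-miR-4497 throughout. Of the reads assigned to human entries, the 8 members made up 52.1 to 77.9% in the D and P libraries and in G1, but only 22.6% in G2 and 15% in G3. The stacked bars of read shares show both the drop in D2 and the different make-up of G3.

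**Figure D1:**
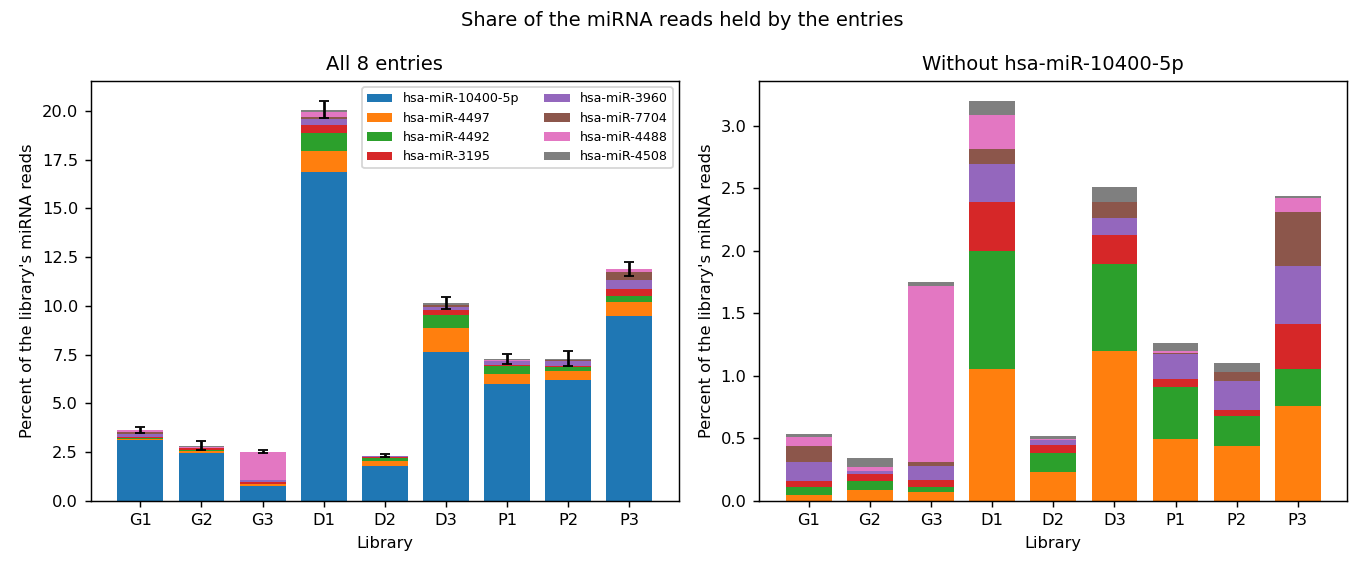
Percent of the miRNA reads of each library (y axis) held by the 8 entries (left, with 95% Wilson intervals on the total) and by the 7 entries other than hsa-miR-10400-5p (right), for G1 to P3 on the x axis. D1 stands highest at 20.1% and D2 lowest at 2.32%, and hsa-miR-4488 fills most of the right-hand bar of G3.

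The most abundant member, hsa-miR-10400-5p, had 49421, 16837 and 6473 CPM in G1, G2 and G3. In the D libraries it stood at 148096, 58131 and 67335 CPM by replicate number, and in the P libraries at 53143, 44021 and 66830 CPM. It ranked first among all miRNAs in D1, at rank 2 or 3 in the other D and the P libraries, and between 5 and 34 in the G libraries. All D libraries were above all G libraries, with G1 close to the P libraries. As a share of reads it was 1.80% in D2, which lay inside the 0.774 to 3.12% of the G libraries, while all P libraries (6.01 to 9.46%) were above these.

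For hsa-miR-4497 the G libraries were close together, at 710, 569 and 598 CPM in G1, G2 and G3. The D libraries had 9275, 7507 and 10525 CPM and the P libraries 4335, 3131 and 5362 CPM, in order of replicate number. The 3 groups did not overlap: every D library was above every P library, and every P library above every G library. These values rest on 17 to 106 reads per library in G, 341 to 458 in D and 81 to 232 in P. By share of reads the D library D2 (0.232%) fell below the P libraries (0.441 to 0.759%) but stayed above the G libraries (0.0448 to 0.0834%).

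The order was the same for hsa-miR-4492. It had 1038, 502 and 305 CPM in G1, G2 and G3, then 8268, 4954 and 6090 CPM across the D libraries, and 3681, 1701 and 2064 CPM across the P libraries. Again no library of one group overlapped with another group, on 15 to 54 reads per library in G, 229 to 304 in D and 44 to 197 in P. The share in D2, 0.153%, lay below the 0.239 to 0.416% of the P libraries and above the 0.0364 to 0.0736% of the G libraries. Of all 417 miRNAs tested, 5 had 3 groups that did not overlap in any direction (1.2%), and 3 had D above P above G (0.719%), 2 of which are these.

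hsa-miR-3195 had 820, 402 and 474 CPM in the G libraries and 3400, 1817 and 2045 CPM in the D libraries, which did not overlap by CPM. By share of reads they did, since D2 (0.0563%) lay inside the range of the G libraries (0.0517 to 0.0589%). In the P group it had 617 CPM in P1, 309 CPM in P2 and 2567.5 CPM in P3. P1 and P2 thus lay within or below the range of G, and P3 within the range of D. The group mean in P, 1164 ± 1225 CPM (SD, n = 3), describes none of its libraries.

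hsa-miR-4508, the least abundant of the 8, had 328, 502 and 288 CPM in G, 952, 692 and 1011 CPM in D, and 542, 464 and 101 CPM in P. By CPM all D libraries were above all others, and G and P overlapped. By share of reads D2 (0.0214%) lay inside the range of the G libraries (0.0207 to 0.0736%) and below P1 (0.0613%) and P2 (0.0653%). It rested on at most 51 reads in a library and on 4 in P3.

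For the other 3 entries the groups overlapped in each of the 3 comparisons by CPM. hsa-miR-3960 had 2404, 134 and 948 CPM in G1, G2 and G3, between 1218 and 2693 CPM in D and between 1662 and 3272 CPM in P. The low G2 value stood for 4 reads. By CPM P1 and P2 lay inside the range of the G libraries, and P3 was the highest of the 9. By share of reads all P libraries (0.195 to 0.463%) were above all G libraries (0.0196 to 0.152%).

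hsa-miR-7704 had 1940, 33.5 and 248 CPM in G, 1034, 64.9 and 1149 CPM in D, and 74.7, 502 and 3021 CPM in P. Each group held 1 library with very few reads, with 1 read in G2, 3 in D2 and 4 in P1. Its levels within a group spanned 17.7-fold in D, 40.4-fold in P and 57.9-fold in G.

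hsa-miR-4488 was highest in a G library. G3 had 11778 CPM, from 2087 reads, while G1 and G2 had 1202 and 201 CPM. The D libraries had 2421, 325 and 0 CPM, with 0 of 38258 reads in D3, which allows up to 3 reads or 68.9 CPM. The P libraries had 168, 38.6 and 805 CPM. Of its 2283 reads in all 9 libraries, 2137 were in the G group and 2087 in G3 alone. The plot of levels by stage shows this library apart from the rest of its panel.

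**Figure D2:**
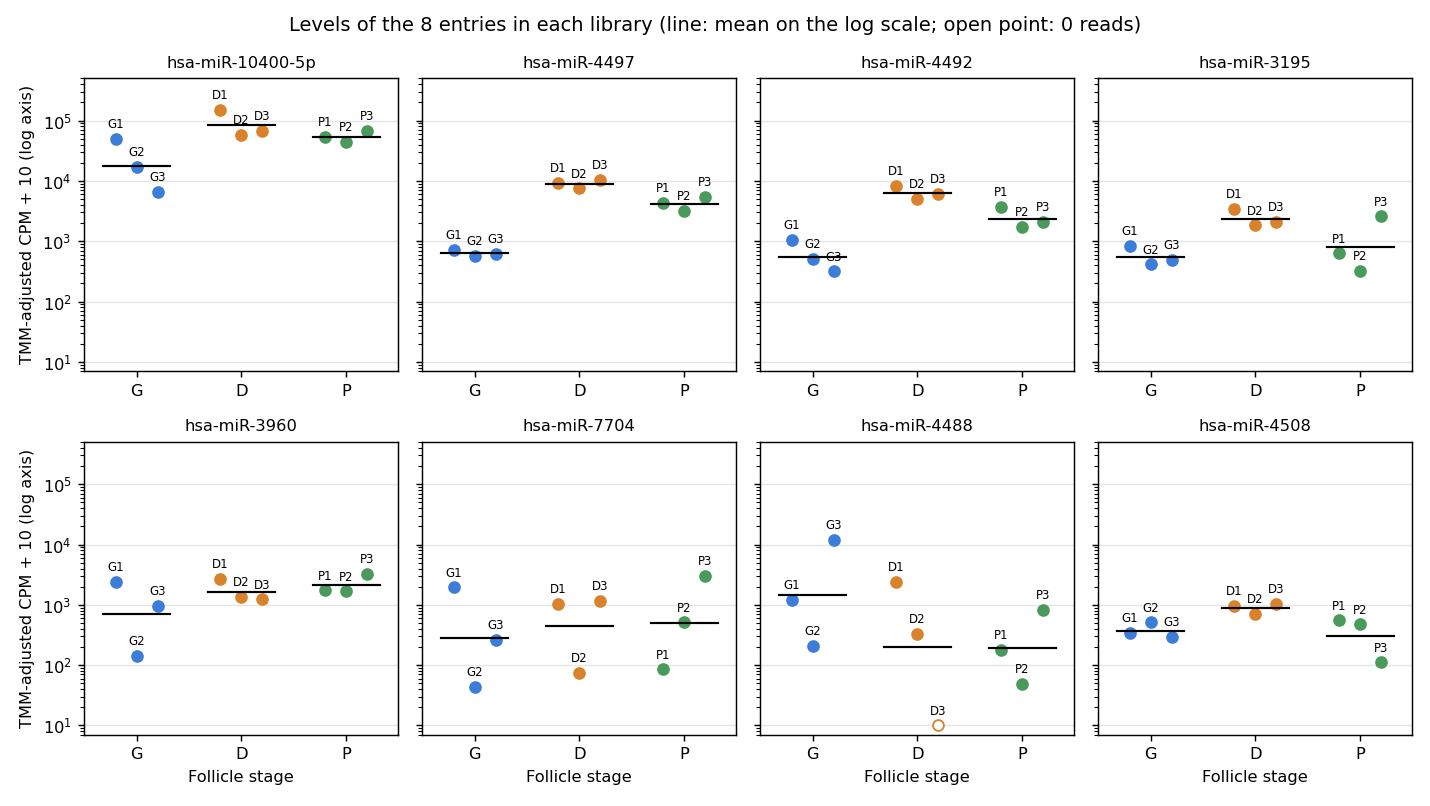
TMM-adjusted CPM plus 10 on a log axis (y axis) for each of the 8 entries by follicle stage (x axis). Each point is 1 library, the line is the mean on the log scale, and the open point is D3 with 0 reads of hsa-miR-4488. hsa-miR-4497 and hsa-miR-4492 form 3 separate steps with D highest and G lowest, whereas hsa-miR-7704 and hsa-miR-4488 scatter within each stage.

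The first comparison asked which vesicle miRNAs differ between growing and dominant follicles. Differences were tested by limma on log2(CPM + 10), a scale that understates the change of rarely read miRNAs, and a single model held all 9 libraries. Calls needed a Benjamini-Hochberg adjusted p under 0.1 over all 417 and a fold change of at least 2. In G vs. D, hsa-miR-4497 and hsa-miR-4492 were called, both lower in G, and none of the 8 was called higher. In all, 4 of the 417 were called (0.959%), 3 of them lower in G (0.719%).

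hsa-miR-4497 had 626 ± 74.6 CPM in G and 9102 ± 1517 CPM in D (SD, n = 3 each). Its log2 fold change in G vs. D was -3.83 with a standard error of 0.56 (limma adjusted p = 0.00416), the smallest p of all 417 miRNAs. hsa-miR-4492 had 615 ± 379.5 CPM in G and 6438 ± 1684 CPM in D. Its log2 fold change was -3.51 with a standard error of 0.67 (limma adjusted p = 0.0296), the second smallest p. Without D1 or with the P libraries left out of the fit the call of hsa-miR-4492 was lost (adjusted p = 0.176 and 0.145, with log2 fold changes of -3.32 and -3.51), and under total-sum scaling both calls were lost (adjusted p = 0.172 for hsa-miR-4497 and 0.180 for hsa-miR-4492), with log2 fold changes of -3.35 and -3.03. Under that scaling without each library's most abundant miRNA both calls were kept. The limma adjusted p was then 0.00561 for hsa-miR-4497 and 0.0216 for hsa-miR-4492, with log2 fold changes of -3.84 and -3.52.

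The remaining members did not pass. hsa-miR-10400-5p had a log2 fold change of -2.25 (standard error 0.64, limma adjusted p = 0.187) and was called only where G1 was left out (-2.996, adjusted p = 0.0213, or -3.26 and 0.0399 without D2 as well). Without G3 its value was -1.53 (adjusted p = 0.519). For hsa-miR-3195 the value was -2.09 (0.84, adjusted p = 0.402). Negative values that were not called were also found for hsa-miR-3960 (-1.26, but -0.12 without G2 and -2.16 without G1), hsa-miR-4508 (-1.25) and hsa-miR-7704 (-0.68, but 0.66 without G2), and a positive one for hsa-miR-4488 (2.84, or 1.33 without G3 and 0.68 without D3). In all, 7 of the 8 were below 0, with a median of -1.68, beside a median of 0.43 over all 417 and 37.4% of these below 0. The replicates of G and D did not overlap for 5 of the 8 by CPM, against 14.6% of all miRNAs tested, and for 2 of the 8 by share of reads, against 12.7% on that scale. An unadjusted p under 0.05 was found for 4 of the 8, beside 9.35% of all miRNAs.

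The second comparison set pre-ovulatory against growing follicles. Of the 8 entries hsa-miR-4497 alone was called, higher in P, beside 2 called miRNAs of 417 in either direction (0.48%) and 1 in that direction (0.24%). It had 4276 ± 1117 CPM in P against 626 ± 74.6 CPM in G (SD, n = 3 each), and its log2 fold change was 2.72 with a standard error of 0.56 (limma adjusted p = 0.0589). The call was lost without G2, D1, D3, P1, P2 or P3, with an adjusted p between 0.117 (without D3) and 0.341 (without P1), and under total-sum scaling (0.192), no filter on low values (0.145), no variance trend (0.135) or the D libraries left out (0.20). The call was kept under total-sum scaling without each library's most abundant miRNA (limma adjusted p = 0.0855). The log2 fold change lay between 2.54 and 3.07 in all settings.

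hsa-miR-4492 had 2482 ± 1054 CPM in P and in that comparison a log2 fold change of 2.09 (standard error 0.67, limma adjusted p = 0.325). Its P and G libraries did not overlap, and it was called without G1 (2.55, adjusted p = 0.0801) and by DESeq2 on the recovered reads (2.09, adjusted p = 0.0714). hsa-miR-10400-5p had a value of 1.62 (0.64, adjusted p = 0.485) and was also called without G1 (2.37, adjusted p = 0.0670), while without G3 the value was 0.90 (adjusted p = 0.668). For hsa-miR-3960 the value was 1.61 (adjusted p = 0.675), and it lay between 0.48 without G2 and 2.51 without G1. Across the 8 entries 6 values were above 0 and 2 below, hsa-miR-4488 (-2.91, or -1.40 without G3) and hsa-miR-4508 (-0.28, but 0.05 under total-sum scaling and 0.07 by DESeq2). For hsa-miR-3195 (0.55) and hsa-miR-7704 (0.86) the sign turned without P3, to -0.30 and -0.42. The median of the 8 was 1.24, beside -0.28 over all 417 miRNAs. The groups did not overlap for 2 of the 8 by CPM (9.59% of all miRNAs) and for 4 of the 8 by share of reads (10.3% of all miRNAs). An unadjusted p under 0.05 was found for 3 of the 8, beside 7.43% of all miRNAs.

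The third comparison set pre-ovulatory against dominant follicles. In P vs. D limma called 0 of the 8 entries, beside 11 of 417 miRNAs (2.64%), of which 7 were lower in P (1.68%), and 0 of the 8 had an unadjusted p under 0.05, beside 61 of 417 (14.6%). edgeR and DESeq2 on the recovered reads called 0 as well. For hsa-miR-4492 the log2 fold change was -1.42 (standard error 0.67, limma adjusted p = 0.316) and for hsa-miR-4497 it was -1.11 (0.56, adjusted p = 0.325), although the replicates of P and D did not overlap by CPM in either case. The replicates of hsa-miR-4508 did not overlap by CPM either (-1.53, standard error 0.86, adjusted p = 0.349), and its value was -0.79 without P3. For hsa-miR-3195 the value was -1.54 (adjusted p = 0.341), between -0.88 without P2 and -2.39 without P3. By CPM 3 of the 8 entries had groups that did not overlap, beside 22.3% of all miRNAs, and by share of reads 0 of the 8, beside 21.8%. The median of the 8 was -0.87, beside 0.16 over all 417 miRNAs, and hsa-miR-3960 (0.35) and hsa-miR-7704 (0.18) were the 2 entries above 0. The value of hsa-miR-10400-5p was -0.63, and 0.20 under total-sum scaling.

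Each of the 3 groups enters 2 of these comparisons, so the comparisons are not independent of each other. The plot of fold changes sets the 3 of them side by side.

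**Figure D3:**
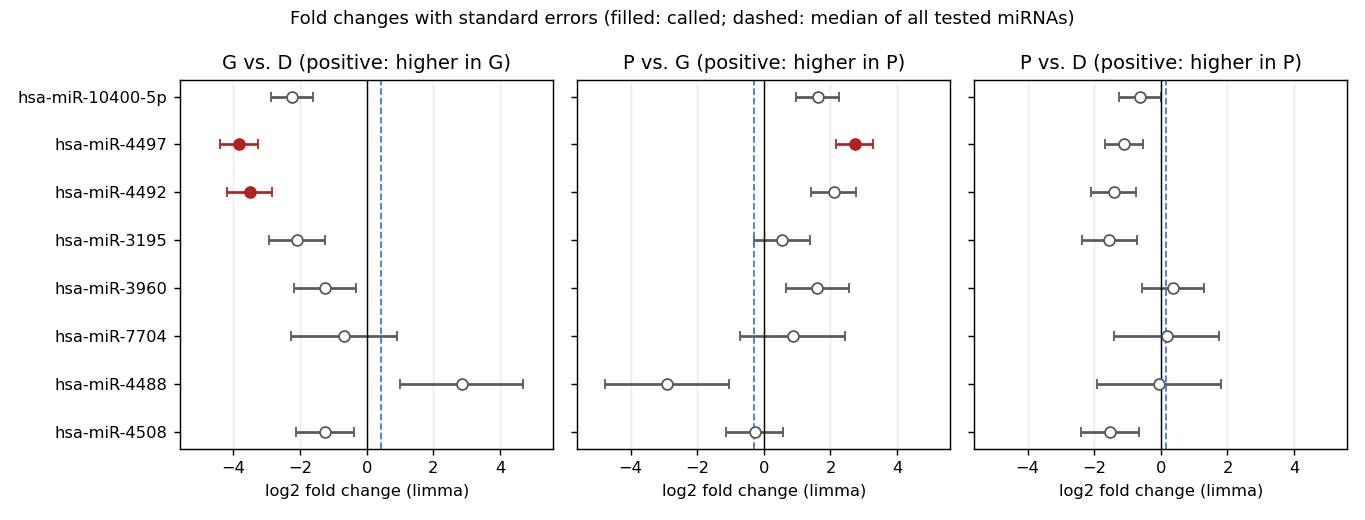
log2 fold change from limma on log2(CPM + 10) (x axis) with its standard error for each of the 8 entries (y axis) in each of the 3 comparisons, G vs. D on the left, then P vs. G, then P vs. D. Filled points are called, and the dashed line is the median of all 417 miRNAs (0.43, -0.28 and 0.16). In G vs. D 7 of the 8 points lie left of 0 and hsa-miR-4488 lies to the right, at 2.84.

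Whether the 8 entries vary together was examined over the 9 libraries on log2(CPM + 10), for 28 pairs, with exact permutation over all pairings (two-sided) and Benjamini-Hochberg adjustment over the pairs. The libraries are pools from the same 2 animals, so they share their source. Of the 28 Pearson correlations 22 were above 0, with a median of 0.40, where the median over all pairs of the 417 miRNAs was 0.0551 and 55.1% were above 0. The 3 pairs with an adjusted p under 0.05 all lay among hsa-miR-10400-5p, hsa-miR-4497 and hsa-miR-4492, the 3 most abundant members.

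hsa-miR-4497 and hsa-miR-4492 were the closest pair, with Pearson's r = 0.945 (exact permutation p = 9.09e-05, adjusted p = 0.00255) and Spearman's rho = 0.95 (exact permutation p = 0.000353, adjusted p = 0.00700). Without G2 and G3, the 2 libraries farthest from the median of hsa-miR-4497, r was 0.888. For hsa-miR-10400-5p and hsa-miR-4492 r was 0.902 (exact permutation p = 0.000212, adjusted p = 0.00297), rho was 0.933 (exact permutation p = 0.000750, adjusted p = 0.00700), and r without G2 and G3 was 0.705 (exact permutation p = 0.0504). For hsa-miR-10400-5p and hsa-miR-4497 r was 0.802 (exact permutation p = 0.00139, adjusted p = 0.0129) and rho was 0.933 (exact permutation p = 0.000750, adjusted p = 0.00700). There r fell to 0.557 without G2 and G3 (exact permutation p = 0.178), so that its size depends in part on those libraries. Leaving them out keeps G1 as the only growing library, and with it less of the difference between stages.

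Since the groups differ, part of such a correlation is the difference between stages. On deviations from the group means, with exact permutation within groups (two-sided), none of the 28 pairs passed the adjustment. The smallest adjusted p was 0.259, for hsa-miR-3195 and hsa-miR-3960 (r = 0.543). The median r was 0.395 and 21 of the 28 were above 0, beside 0.0636 and 55.4% over all pairs of the 417 miRNAs. The r of hsa-miR-4497 and hsa-miR-4492 was 0.450 on this scale and that of hsa-miR-10400-5p and hsa-miR-4497 was 0.431, while that of hsa-miR-10400-5p and hsa-miR-4492 was 0.849. With 3 libraries in each group, such deviations hold little information. They also allow too few permutations for a single pair to pass the adjustment by itself. That none passed therefore decides nothing about the pairs.

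**Figure D4:**
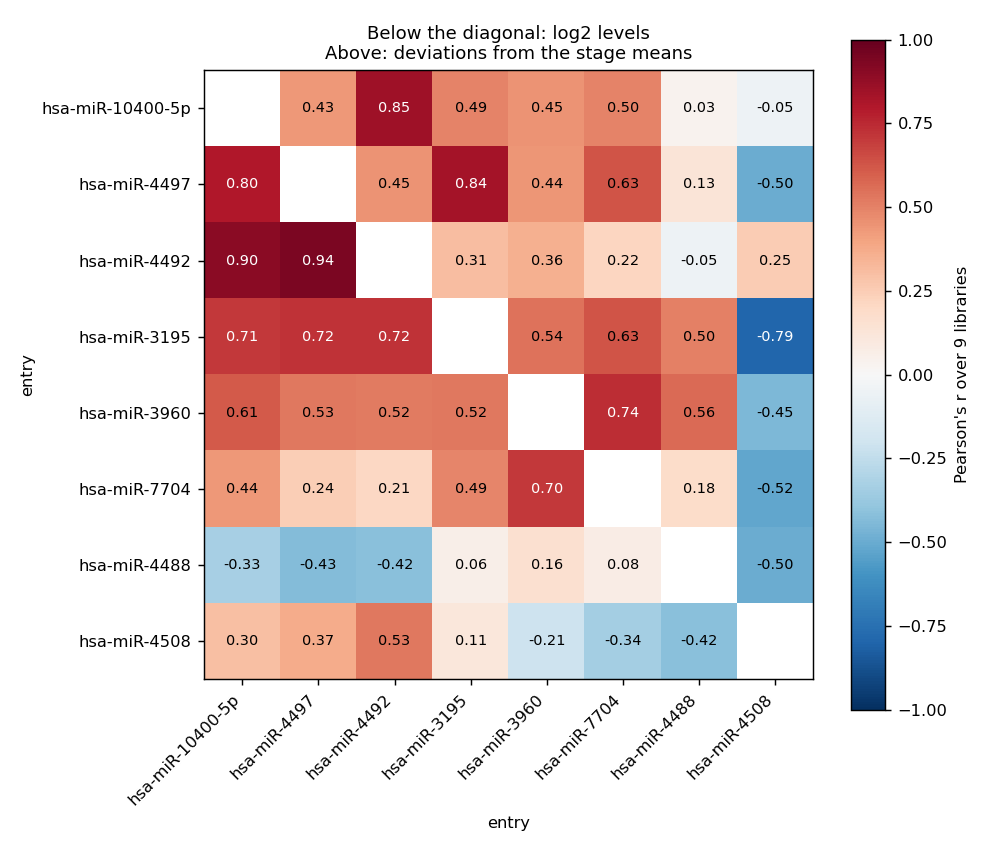
Pearson's r over the 9 libraries for each pair of the 8 entries, on log2(CPM + 10) below the diagonal and on deviations from the group means above it, from blue (-1) to red (1). The cells among hsa-miR-10400-5p, hsa-miR-4497 and hsa-miR-4492 are the darkest below the diagonal, and the row of hsa-miR-4488 holds negative values with these 3.

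hsa-miR-3195 lay next to this trio, with r of 0.708 to 0.722 with its members, none of which passed the adjustment. Its rho with hsa-miR-10400-5p was 0.9 (exact permutation p = 0.00203, adjusted p = 0.0142). hsa-miR-3960 and hsa-miR-7704 had r = 0.704 with each other (exact permutation p = 0.0106, adjusted p = 0.0740), and 0.436 without G2 and P3. hsa-miR-4488 had negative r with each of the trio (-0.43 to -0.33), with unadjusted exact permutation p of 0.249 to 0.385. Without G2 and G3 these became 0.440 with hsa-miR-10400-5p, -0.286 with hsa-miR-4497 and -0.125 with hsa-miR-4492, and on deviations from the group means they were 0.0333, 0.131 and -0.0471. hsa-miR-4508 had r of -0.42 to -0.21 with hsa-miR-3960, hsa-miR-7704 and hsa-miR-4488, none of which passed, and that with hsa-miR-3960 was 0.186 without G2 and P3. The r of an entry with the log2 read number of the library was between -0.33 for hsa-miR-10400-5p and 0.47 for hsa-miR-4488.

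Ratios of reads within a library do not depend on how the libraries were scaled. For every 100 reads of hsa-miR-4497 there were 146, 88.2 and 50.9 reads of hsa-miR-4492 in G1, G2 and G3, then 89.1, 66.0 and 57.9 across the D libraries, and 84.9, 54.3 and 38.5 across the P libraries. The 3 groups overlapped, and the ratio spanned 3.80-fold over the 9 libraries. D2 lay inside the range of the other D libraries here.

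Against hsa-miR-10400-5p the spread was wider. For every 100 of its reads there were 1.44, 3.38 and 9.24 reads of hsa-miR-4497 in G1, G2 and G3, then 6.26, 12.9 and 15.6 in D1, D2 and D3. In the P libraries the ratio was close to constant, at 8.16, 7.11 and 8.02. The ratio of hsa-miR-4497 thus overlapped between G and D, since G3 was above D1. For hsa-miR-4492 the same ratio was 2.10 to 4.71 in G, 5.58 to 9.04 in D and 3.09 to 6.93 in P. For hsa-miR-4492 alone of these 2, all D libraries were above all G libraries in the ratio to hsa-miR-10400-5p. By share of reads, all D libraries were above all G libraries for both. The number of hsa-miR-4508 reads for every 100 of hsa-miR-4492 was 31.6 to 100 in G, 11.5 to 16.6 in D and 4.88 to 27.3 in P.

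By the mean of the 8 standardized levels, the libraries ran from -1.08 in G2 and -0.69 in G3 to 0.42 in D3 and 1.04 in D1. Of the 409 other miRNAs tested, the 5 whose levels followed this mean most closely over the 9 libraries were eca-miR-122 (r = 0.879), hsa-miR-3196 (0.757), eca-miR-22 (0.754), eca-miR-378 (0.727) and hsa-miR-223-5p (0.721), given as a description with no test. eca-miR-122, a liver miRNA, had 12587 ± 6788 CPM in G, 32588 ± 11376 CPM in D and 15727 ± 3059 CPM in P (SD, n = 3 each). hsa-miR-3196 had 0 reads in all G libraries and stayed near the level of a single read elsewhere.

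Markers of blood and liver cells were read in the same libraries. The summed level of the 4 miR-122 entries was 7309 to 20244 CPM in G, 20499 to 43082 CPM in D and 12213 to 17796 CPM in P. The 2 entries of miR-223, a myeloid miRNA, summed to 167 to 519 CPM in G, 1060 to 2176 CPM in D and 38.6 to 957 CPM in P. The 14 names matched to miR-451 summed to 31435 to 141788 CPM in G, 63107 to 163295 CPM in D and 29952.5 to 49985 CPM in P. That match was by name alone, so other miRNAs whose names begin alike may be part of this sum. Leukocyte miR-142 had 463 to 1138 CPM in G, 843 to 3267 CPM in D and 25.2 to 56.1 CPM in P. miR-486 of red cells (2 entries) had 6434 to 26444 CPM in G, 18983 to 50905 CPM in D and 2668 to 7643 CPM in P. miR-150 of lymphocytes (3 entries) had 0 to 636 CPM in G, 276 to 1276 CPM in D and 74.7 to 966 CPM in P. By CPM, G and D did not overlap for miR-122, by a narrow margin, and for miR-223, and they overlapped for the other 4 markers. Of all single miRNAs tested, 14.6% had G and D apart by CPM. Shares of reads are not given for these sums. The part of these sources in the levels of the 8 entries was not tested.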

How the data were processed

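The deposited table holds 1 value per miRNA name and library, a CPM signal that the authors adjusted by TMM. Per the study's methods, reads were trimmed, and those of at least 15 bases were assigned in CLC Genomics Workbench 21 to miRBase 22 entries of horse (given priority), cattle and human with up to 2 mismatches. No step that removes ribosomal RNA is named. Multiples of the smallest step in each library gave whole reads for 100% of values (tolerance 0.01 read).

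The test covered 417 of 3886 names, those over 10 CPM in 2 or more of the 3 replicates of some group. It was run with limma 3.58.1 (trended prior variance) in R 4.3.3 on log2(CPM + 10) over the 9 libraries together, with Benjamini-Hochberg adjustment. edgeR 4.0.16 and DESeq2 1.42.0 on recovered reads, other pseudocounts (1 and 50 CPM), filters, scalings, a replicate block and leaving out each library were alternatives. The fits were also run on simulated data with changes placed in P alone, which held no true change between G and D. No result of that run is used here. Correlations used exact permutation in numpy 2.4.6, and shares have 95% Wilson intervals from scipy 1.17.1. The members and lists were chosen with earlier results of these data known. All 8 members are named, and the 5 other miRNAs with the highest r with their mean. A planned list of other entries with at least 75% G and C was not made, since sequences were at hand for too few.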

Additional observations from a re-analysis of the deposited data

How the results depend on the processing

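Of the 8 entries, limma called 2 in G vs. D and 1 in P vs. G, and 0 where P was set against D. In G vs. D the count was 1 with only the 2 groups compared and 0 under total-sum scaling, and 1 to 3 when single libraries were left out. With each library's most abundant miRNA left out of that scaling, the count was 2 in G vs. D and 1 in P vs. G. In P vs. G it was 0 with no filter, with only the 2 groups compared, with no variance trend, under total-sum scaling and at an adjusted p under 0.05, 2 by DESeq2, 3 without G1 and D2, and 0 to 3 when single libraries were left out. It was 0 in P vs. D in all 22 alternatives. Over all 417 miRNAs, 4 were called in G vs. D, but 1 with only the 2 groups compared, 1 under total-sum scaling, 14 by DESeq2 and 1 to 8 without single libraries. In P vs. G 2 were called, but 0 with no filter, 0 with only the 2 groups compared, 1 with no variance trend, 0 under total-sum scaling, 14 by DESeq2, 18 without G1 and D2, 0 at an adjusted p under 0.05 and 0 to 19 without single libraries. In P vs. D 11 were called, but 7 with a pseudocount of 50 CPM, 22 with a filter above 100 CPM, 21 with only the 2 groups compared, 17 under total-sum scaling without the most abundant miRNA, 7 by edgeR, 46 by DESeq2, 3 without G1 and D2, 6 at an adjusted p under 0.05 and 0 to 16 without single libraries. The cause of these shifts was not tested. Total-sum scaling moved the median of all miRNAs in G vs. D from 0.43 to 0.77, for P against G from -0.28 to -0.03 and for P against D from 0.16 to 0.70. The 3 correlated pairs became 0 on deviations from the group means, where permutations were too few for a single pair to pass. They were 3 to 5 without single libraries.

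Log2 fold changes of entries that were not called turned in sign. Without 1 library, or without G1 and D2, those of hsa-miR-7704 ran from -3.38 to 0.660 in G vs. D, from -0.480 to 2.26 in P vs. G and, for P against D, from -1.11 to 1.47. Those of hsa-miR-3195 (-0.295 to 1.21) and hsa-miR-4508 (-0.700 to 0.459) did so in P vs. G, as did hsa-miR-4488 for P against D (-2.23 to 1.73). For hsa-miR-7704 they were 0.660 (without G2) and 0.000925 (without D3) in G vs. D, -0.480 (without G2) and -0.425 (without P3) in P vs. G, and for P against D -1.11 without D2, without P3 or without G1 and D2. For hsa-miR-3195 in P vs. G the value was -0.295 without P3. For hsa-miR-4508 in P vs. G it was 0.0457 under total-sum scaling, 0.00210 by edgeR, 0.0668 by DESeq2 and 0.459 without P3. For hsa-miR-10400-5p in P vs. D it was 0.199 under total-sum scaling. For hsa-miR-4488 in P vs. D it was 0.926 with a pseudocount of 1 CPM, 0.759 under total-sum scaling, 0.271 under that scaling without the most abundant miRNA, 1.73 without D1, 0.30 without D2 or without G1 and D2, and 0.923 without P2.

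Libraries with the same replicate number did not deviate together (r of -0.0552 to 0.141), so the numbers were not taken as pairs. With a replicate block 2, 1 and 0 of the 8 entries and 4, 3 and 11 of all miRNAs were called in the 3 comparisons, in the order given above. Single reads of 5.64 to 38.6 CPM limit hsa-miR-4508, hsa-miR-7704, hsa-miR-4488 and hsa-miR-3960, which had libraries with 4 or fewer reads.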
